A study of Mus musculus with 84 samples.

Results

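The cytosolic ribosomal proteins build the large and the small subunit of the ribosome outside mitochondria, and their mRNAs were followed here from mouse embryonic fibroblasts (MEFs) through reprogramming to embryonic stem cells (ESCs). Members were chosen by symbol. A member is named Rpl or Rps with a number, which may be followed by a, x, y or l and a further number, or is Rplp0, Rplp1, Rplp2 or Rpsa. Symbols that hold Rps6k (kinases) or -ps (pseudogenes) were left out. The rule gave 84 of the 18909 genes counted, of which 46 encode proteins of the large subunit and 31 of the small subunit. The other 7 are near copies of a ribosomal protein gene, namely Rpl3l, Rpl7l1, Rpl10l, Rpl22l1, Rpl39l, Rps27l and Rps4y2. Rps4y2 is listed as Rps4l in the reference annotation, which types it as a transcribed processed pseudogene. The label held for level. The median member had 33459 reads over all libraries, against 883 for all genes that passed the low-count filter, and 79 of the 84 had over 3 reads in every library. Only 2 members were undetected, with 3 reads or fewer in every library, namely Rpl26 of the large subunit and Rpl3l, the copy of Rpl3 known from muscle. A near-zero count of Rpl26 goes against its place in every ribosome, and how its reads were assigned is not given in the sources used here.

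Ribosomes take up their proteins in fixed proportions, and growing cells transcribe these genes at high rates, with Myc among the factors known to raise them. Their mRNAs typically start with a C in a run of pyrimidines, the terminal oligopyrimidine (TOP) tract, through which mTORC1 and Larp1 control their translation. Some near copies take the place of the common protein in particular cells: Rpl10l and Rpl39l are known from male germ cells, and Rpl22l1 from cells that lack Rpl22.

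The study asked how a constitutively active Smad3 (Smad3CA) acts on reprogramming, and all cells are of 129 strain background. Wild-type MEFs were grown in GMEM-based medium with serum, FGF2 and heparin but no LIF. The ESCs are the TNG MKOS line in medium with LIF, so that group is a single line. This line carries a doxycycline-inducible MKOS cassette (c-Myc, Klf4, Oct4, Sox2) joined to mOrange and a CAG-driven rtTA at the Sp3 locus, and a GFP reporter of Nanog. Reprogramming cells were transgenic MEFs of chimeric embryos made with that line, mixed with wild-type MEFs, infected with a pMXs retrovirus for blue fluorescent protein (Cont) or for Smad3CA (Sm3CA), grown in ESC medium with LIF, vitamin C and 300 ng/ml doxycycline, and sorted for mOrange after 3, 6, 8 or 10 days. Each of the 10 groups has 3 biological replicates, of 3 wells each and 2 on day 10, and wells were summed to 30 libraries. STRT RNA-seq, which reads the 5′ ends of transcripts, gave 1008596 to 2296059 reads per library (median 1602511). The tables count reads, so PCR copies of a molecule enter more than once, and every interval and floor given covers counting error only. In these bulk samples, fewer cells of a type and less RNA per cell cannot be told apart.

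The groups were checked against markers in normalized counts summed over each list. The 8 fibroblast genes summed to 4139, 4535 and 5837 in the MEF libraries in ascending order and to 2.74, 3.86 and 10.8 in ESCs, where Col1a2, Col3a1 and Prrx1 were at 0. In the reprogramming groups they summed to 345, 355 and 452 in Cont on day 6, 636, 1632 and 1722 in Cont on day 10 and 544, 778 and 783 in Sm3CA on day 10. The 8 ESC genes summed to 8.89, 11.9 and 12.1 in MEFs, where Pou5f1, Esrrb and Sall4 were at 0. They reached 480.3, 670.4 and 1053 in Cont on day 10, 1108, 1222 and 2326 in Sm3CA on day 10, and 29069, 32335 and 54064 in ESCs, where Dppa5a had the most reads. Nanog had 327, 12 and 222 reads in ESC replicates 1, 2 and 3, and 18, 9 and 18 in Cont on day 10. For Nanog, ESC replicate 2 was thus far below the other ESC libraries. Esrrb had 190, 192 and 185 reads in the ESC libraries, and Zfp42 2490, 2023 and 1949. Counts of Pou5f1 can include the MKOS cassette. Smad3, which here combines the endogenous gene and the vector, was 184, 89.0 and 126 in Sm3CA and 18.7, 5.19 and 8.94 in Cont on day 3, and 47.7, 32.8 and 44.3 against 14.8, 21.5 and 25.4 on day 10. The MEF and reprogramming libraries also held macrophage transcripts. The 4 macrophage genes summed to 418, 1060.5 and 1778 in MEFs and 583, 2346 and 2509 in Cont on day 10, most of them of Lyz2, against 12.9, 18.3 and 34.3 in ESCs, where Ptprc and Csf1r were at 0. In Sm3CA they summed to 574, 759 and 988 on day 6, below the 1391, 1433 and 1892 of Cont on that day, and to 822, 903 and 1514 on day 10. The 4 epithelial genes summed to 41.2, 74.3 and 80.0 in MEFs, 783, 789 and 926 in Cont on day 10 and 261, 355 and 361 in ESCs. The most abundant of them was Krt18 in MEFs, Krt8 in Cont on day 10 and Cdh1 in ESCs. The 4 endothelial genes reached at most 24.4, in ESCs, where Cdh5, Kdr and Tie1 were at 0. These markers thus differed between groups that are compared below, and the part of these cell types in the results was not tested.

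Some libraries stood apart in the members. ESC replicate 2 had the highest share of member reads (20.9%) and a pattern of its own. Rpl4, which lines the exit tunnel of the large subunit, had 13662, 3376 and 12504 normalized counts in ESC replicates 1, 2 and 3, and Rps29, a zinc-binding protein of the small subunit, had 15174, 36931 and 11425. The second library was thus the lowest for Rpl4 and the highest for Rps29. Sm3CA replicate 2 of day 8 had the lowest share of all libraries (9.25%). Rplp1, a stalk protein, had 4953, 2047 and 7090.0 normalized counts in the 3 Sm3CA libraries of day 8, and Rplp0, to which it binds, 669, 1001 and 859. The same library was the lowest for Rplp1 and the highest for Rplp0. In MEF replicate 3, Rplp1 was also low, at 5220.0 against 9489 and 8932 in MEF replicates 1 and 2. In 7 of the 10 groups, the library with the lowest share had the highest TMM factor, by which edgeR scales library sizes. The part of these libraries in each result on members is given with it as counts without them, where leaving them out moved a count by over 1.5 times.

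The share of all reads that fell in members ranged from 9.25 to 13.5% in the 27 MEF and reprogramming libraries, and each of the 3 ESC libraries lay above that range. In MEFs the shares were 11.8, 11.5 and 9.82% (mean 11.05% ± 1.07 SD, n = 3). The Cont libraries of day 3 had 12.3, 12.1 and 12.3%, those of day 6 11.7, 12.1 and 12.5%, those of day 8 13.2, 13.4 and 12.4% and those of day 10 12.2, 10.5 and 10.8%. In Sm3CA the day 3 libraries had 11.2, 13.5 and 12.6%, the day 6 libraries 10.3, 12.5 and 12.3%, the day 8 libraries 10.996, 9.25 and 13.1% and the day 10 libraries 9.59, 11.1 and 10.4%. The 8 reprogramming groups overlapped the MEFs or one another, with group means from 10.3% (Sm3CA day 10) to 13.0% (Cont day 8). ESC libraries had 17.9, 20.9 and 14.7% (mean 17.8% ± 3.11 SD, n = 3), which is 1.62 times the MEF mean, 1.6 times that of Cont day 10 and 1.73 times that of Sm3CA day 10. The small-subunit share differed more between these means than that of the large-subunit genes, from 5.26 to 9.31% of reads (1.77 times) against 5.54 to 8.25% (1.49 times). These shares are a description without a test. ESC libraries held reads of 10935 to 12382 genes and the others of 12432 to 14096. The part of this difference in the shares was not tested.

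**Figure D1:**
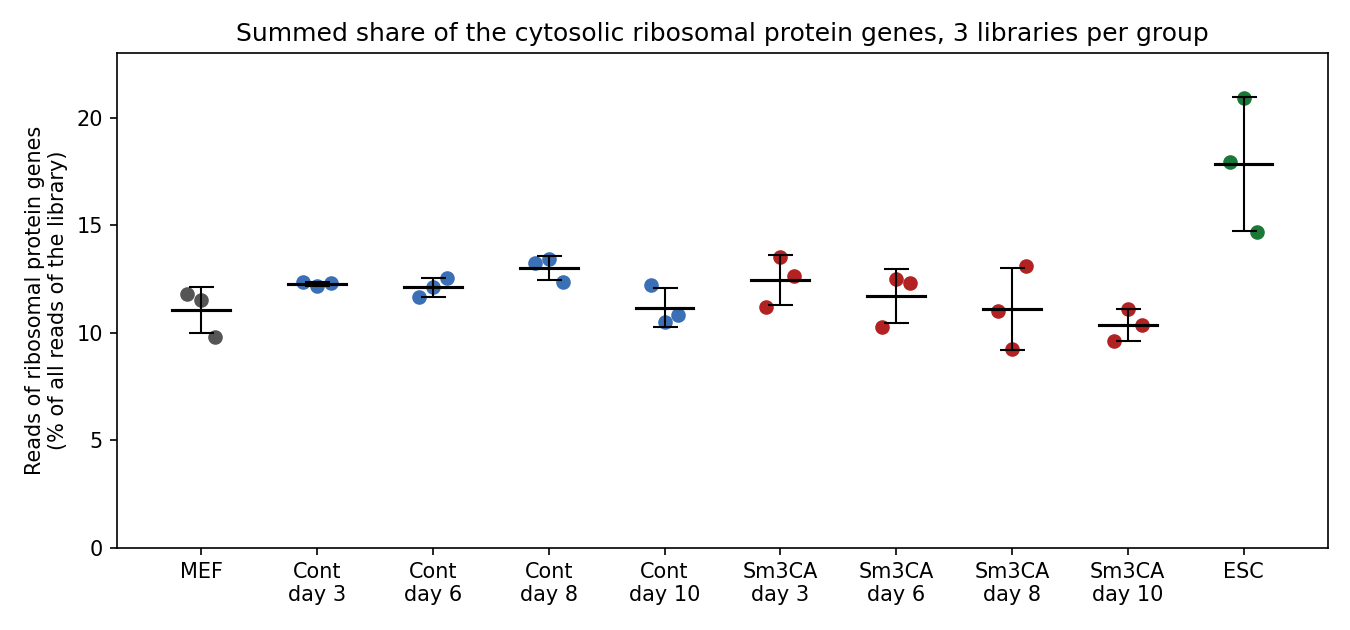
Percent of all reads that fell in the 84 cytosolic ribosomal protein genes, by group, with 1 point per library and the group mean and SD (n = 3). The ESC libraries span 14.7 to 20.9%, and the 27 other libraries 9.25 to 13.5%.

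The place on the plate cannot be told apart from part of the design. Wells of MEFs, ESCs and day 3 lie in rows A to C, those of days 6 and 8 in rows D to F, and those of day 10 in rows G and H. ESC wells had mean shares of 17.9, 17.7 and 17.9% in rows A, B and C, and MEF wells 11.12, 11.04 and 10.999%. Cont day 3 wells, in the same rows, had 12.2, 12.3 and 12.3%. Each row holds 1 well of each replicate of these groups, so the rows repeat the same libraries. Within these rows MEFs lie in columns 1 to 3, ESCs in 4 to 6 and Cont day 3 in 10 to 12. Columns 4 to 6 also hold the wells of Cont day 6 and Cont day 10, in other rows, with group means of 12.1 and 11.2%. ESCs thus share rows but not columns with MEFs, and columns but not rows with Cont day 10.

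ESCs were compared with Cont day 10, the end of the control series, to see how far the members still lay from the pluripotent line. Of 82 members tested in edgeR's quasi-likelihood test over all 10979 genes of the 30-library fit (Benjamini-Hochberg adjusted p under 0.05 counted as a call), 74 were higher in ESCs, against 21.5% of all genes. None was called lower (0 of 82, against 30.3% of all genes). No member was lower at unadjusted p under 0.05 either, a mark that 56.9% of all genes met in either direction, and DESeq2 also called 74 higher and 0 lower. The median log2 fold change of the members was 1.10, with an interquartile range of 0.82 to 1.40, against −0.15 for all genes tested. In 70 members every ESC library lay above every Cont day 10 library. The share of all genes without overlap is not given here, so this count stands without a reference. By role, 40 of 45 large-subunit genes (median 1.02), 30 of 31 small-subunit genes (median 1.22) and 4 of 6 near copies (median 1.78) were higher. Rpl10l passed the low-count filter only through ESCs, so it had to differ, and the 2 undetected members were not tested. Without ESC replicate 2 the count of higher members was 72. With Sm3CA day 10 in place of Cont day 10, a choice made after the data were seen, 74 were higher and 0 lower, against 18.6% and 27.2% of all genes. These comparisons share the ESC libraries, and so does the one with Cont day 3.

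With Cont day 3 as the reference, also chosen after the data were seen because its wells lie in the plate rows of ESCs, 51 of 82 members were higher in ESCs and 3 lower, against 23.9% and 29.5% of all genes, and the median was 0.73 against −0.11. The 3 lower members were Rpl34 of the large subunit at −1.09 (edgeR adjusted p = 0.00135), Rps27l, a near copy known as a p53 target, at −0.67 (edgeR adjusted p = 0.0135), and Rpl41, a very short ribosomal protein, at −0.63 (edgeR adjusted p = 0.0158). None of these was lower in ESCs than in Cont day 10, where they stood at −0.08 (edgeR adjusted p = 0.843), 0.34 (edgeR adjusted p = 0.219) and 0.38 (edgeR adjusted p = 0.156).

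ESCs and MEFs, the steady cultures on either side of the series, were compared in a fit of their 6 libraries alone. There, 59 of 81 members tested were called higher in ESCs by edgeR, against 23.5% of the 8798 genes tested, and 0 lower, against 28.8%. At unadjusted p under 0.05 the counts were 63 and 0, where 57.6% of all genes passed in either direction, and DESeq2 gave 63 and 0. The median log2 fold change was 1.02 (interquartile range 0.82 to 1.28), against −0.07 for all genes, and it was 1.02 too with Rpl10l at the bound its reads allow. Single libraries of both groups moved the count. It was 33, 24 and 34 without MEF replicate 1, 2 or 3, against 46, 61 and 61 without ESC replicate 1, 2 or 3. Shares over all genes in these smaller fits are not given here. Fewer calls over all genes and a change of the members thus cannot be told apart. Rps27, a small-subunit gene with few reads in these tables, failed the filter of this fit in addition to the undetected members. Higher members made up 33 of 45 large-subunit genes, 22 of 30 small-subunit genes and 4 of 6 near copies. Of these near copies, Rpl10l and Rpl39l passed the low-count filter of this fit only through ESCs. Both thus had to differ, and both are counted among the 59.

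**Figure D2:**
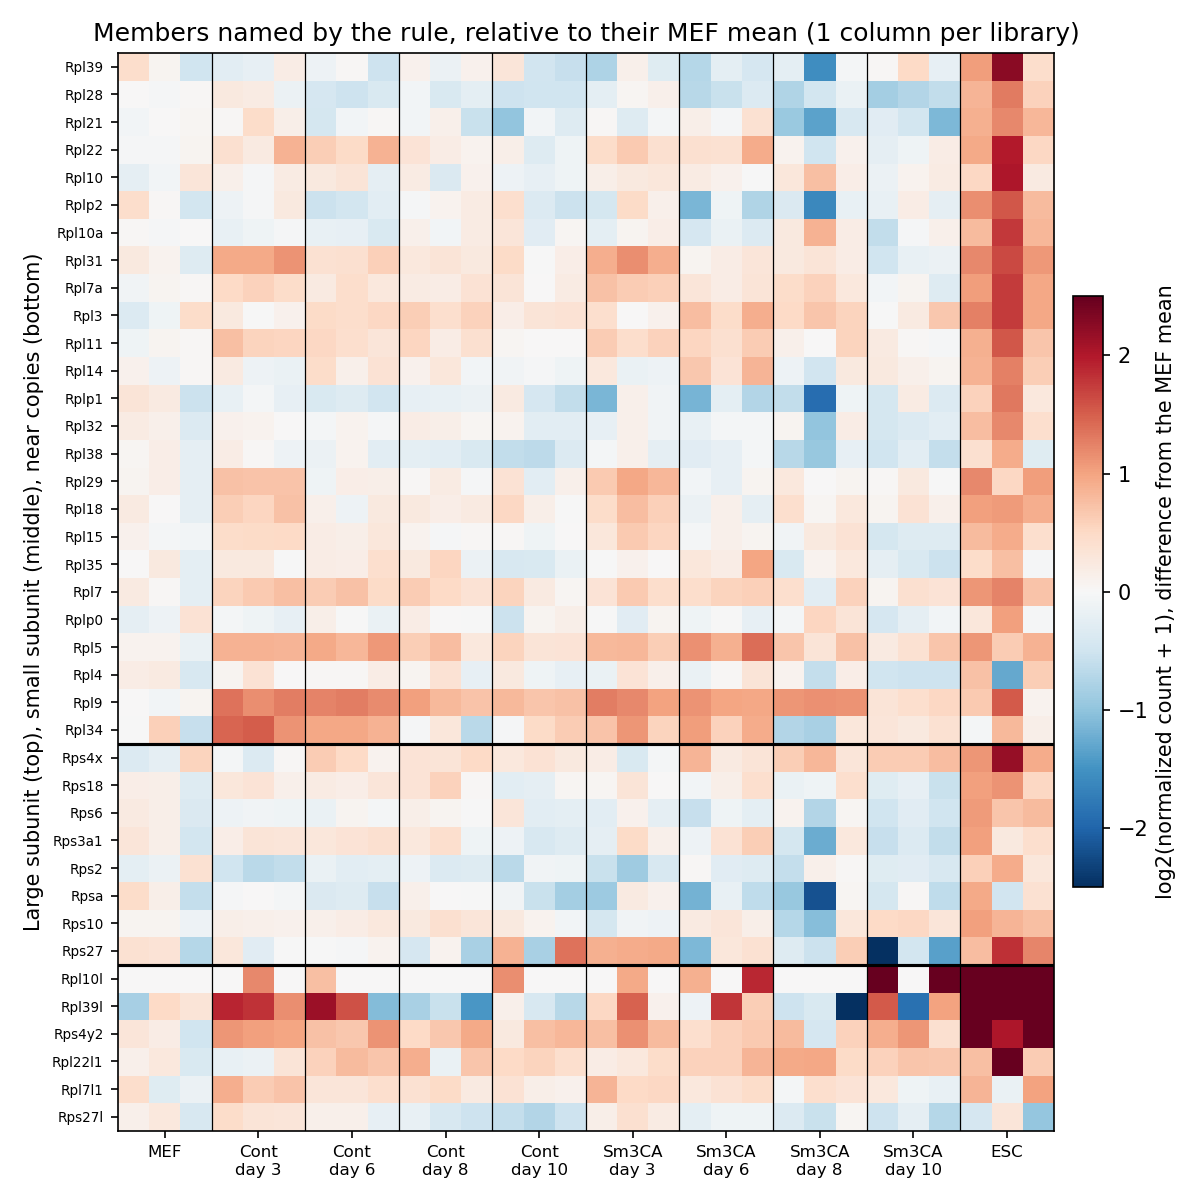
Heat map of members that the naming rule names (a line each, large subunit, small subunit and near copies in turn, then by the difference between ESCs and Cont day 10) in the 30 libraries, as the difference of log2(normalized count + 1) from the MEF mean of the same gene; colours stop at the ends of the scale. Most lines are raised in the 3 ESC libraries, the second of which differs from the other two, and few are raised throughout the reprogramming days.

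Rps29 and Rpl37 were among the common proteins with the largest differences between ESCs and Cont day 10. Near copies filled the places that the naming rule gives, so these genes were chosen after their values were seen. Rps29, which sits in the head of the small subunit, had 7352, 6371 and 4046 normalized counts in MEFs, 5305, 4302 and 4226 in Cont day 10 and 15174, 36931 and 11425 in ESCs (log2 fold change 2.18, SE 0.30, edgeR adjusted p = 7.39e-08). The ESC libraries lay above those of both other groups, the second far above its own group. Rpl37, a zinc-binding protein of the large subunit, had 604, 403 and 371 in MEFs, 457, 374 and 344 in Cont day 10 and 1210.4, 2404 and 754 in ESCs (log2 fold change 1.88, SE 0.26, edgeR adjusted p = 7.68e-08). For both genes the ESC libraries did not overlap those of Cont day 10. Against MEFs they stood at 1.84 (edgeR adjusted p = 0.0024) and 1.66 (edgeR adjusted p = 0.00196). At the other end, 8 of the 82 members were not called: Rpl34, Rpl9, Rpl4, Rpl41, Rpl19, Rps27, Rps27l and Rpl7l1. Rpl9, of the large subunit, had 844, 785 and 804 normalized counts in Cont day 10 and 757, 1402 and 514 in ESCs, a log2 fold change of 0.12 (edgeR adjusted p = 0.654).

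Near copies had the largest log2 fold changes, some on few reads. Rpl10l (ENSMUSG00000060499), an autosomal copy of the X-linked Rpl10, lies at chr12:66283379-66284401 on the minus strand of GRCm38. It had 129, 60 and 95 reads in the ESC libraries and no read in any MEF library. The ESC mean was at least 37.9 times the level that a floor of 3 reads per library sets in MEFs. Over the 3 Cont day 10 libraries it had 1 read in total, so that its reads per library read were 238 times higher in ESCs, with an exact 95% interval from 42.4 to 9435. In Sm3CA day 10 it had 4, 0 and 5 reads, the only reprogramming group in which a library passed 3 reads. Rpl10 itself is added to the large subunit at a late step of assembly. It had 374, 416 and 540.1 normalized counts in MEFs and 400.0, 379 and 406 in Cont day 10. In ESCs it had 624, 1794 and 512, a log2 fold change of 1.28 from Cont day 10 (SE 0.26, edgeR adjusted p = 8.37e-05). Against MEFs it stood at 1.12 (edgeR adjusted p = 0.0303), a call lost with a replicate block, without any single MEF library and without ESC replicate 2.

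Rpl39l, the copy of the tunnel protein Rpl39, lies at chr16:10170226-10174911 on the plus strand. It had 3.33, 9.77 and 8.64 normalized counts in MEFs, 27.6, 25.9 and 16.3 in Cont day 3 and 32.5, 22.0 and 2.64 in Cont day 6. Later it had 3.40, 4.22 and 1.79 in Cont day 8 and 7.41, 4.78 and 3.77 in Cont day 10. ESCs had 357, 585 and 246. ESC libraries thus stood far above all others. Rpl39l was called higher in ESCs against Cont day 10 (log2 fold change 6.21, SE 0.57, edgeR adjusted p = 2.99e-12) and against MEFs (log2 fold change 5.72, SE 0.47, edgeR adjusted p = 6.09e-08). In the fit of ESCs and MEFs it passed the low-count filter only through ESCs, as Rpl10l did, so both had to differ there. It was also higher in Cont day 3 than in MEFs (log2 fold change 1.75, SE 0.61, edgeR adjusted p = 0.0179), on counts of 31 reads at most in a day 3 library, and that call was lost with DESeq2, with 1 well per library and without MEF replicate 1 or day 3 replicate 1. Rpl39 had 3923, 2286 and 2114 in Cont day 10 and 6492, 15070.3 and 4285 in ESCs, so Rpl39 had more reads than its copy in every library.

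Rps4y2, the copy of the X-linked Rps4x, lies as Rps4l at chr6:148354656-148355598 on the plus strand. It had 184, 170.4 and 105 normalized counts in MEFs, 323, 305 and 295 in Cont day 3, 177, 252 and 267 in Cont day 10 and 1491, 612 and 1458 in ESCs. The ESC libraries were all above the rest, with replicate 2 the lowest of them. Rps4y2 was higher in ESCs than in Cont day 10 (log2 fold change 2.38, SE 0.28, edgeR adjusted p = 1.59e-09) and than in MEFs (log2 fold change 2.98, SE 0.39, edgeR adjusted p = 1.10e-05), and in Cont day 3 than in MEFs (log2 fold change 1.13, SE 0.28, edgeR adjusted p = 0.0009). Rps4x, from which a processed copy could draw reads, had 514, 547 and 504 in Cont day 10 and 923, 1951 and 815 in ESCs (log2 fold change 1.22, SE 0.25, edgeR adjusted p = 6.76e-05). How reads that match both genes were assigned is not known here, so the split between them is uncertain.

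The other near copies differed less. Rpl22l1 can replace Rpl22 in the large subunit. It had 101, 112 and 70.9 normalized counts in MEFs, 131, 137 and 125 in Cont day 10 and 158, 616 and 145 in ESCs (log2 fold change 1.17, SE 0.30, edgeR adjusted p = 0.00123). Only ESC replicate 2 was far above the reprogramming libraries, and the call was lost without it (edgeR adjusted p = 0.316) and in the 6 libraries of ESCs and Cont day 10 alone. Against MEFs Rpl22l1 was called as well (log2 fold change 1.68, SE 0.46, edgeR adjusted p = 0.00598), and that call was lost without MEF replicate 3. Rpl22 had 370.4, 266 and 308 in Cont day 10 and 648, 1315 and 478 in ESCs (log2 fold change 1.35, SE 0.25, edgeR adjusted p = 1.37e-05). Rpl7l1, with a role in assembly of the large subunit, had 199, 171 and 167 in Cont day 10 and 281, 137 and 314 in ESCs and was not called there (log2 fold change 0.48, SE 0.23, edgeR adjusted p = 0.0737), while Rpl7 was (log2 fold change 0.74, SE 0.21, edgeR adjusted p = 0.00304), except in these 6 libraries alone. In this pair, ESC replicate 2 was the lowest ESC library for the copy and the highest for Rpl7. Of Rps27 and its copy, most reads fell in the copy: Rps27l had 2762, 4589.9 and 1886 normalized counts in ESCs and Rps27 9.13, 19.9 and 12.9. Over all libraries Rps27 had 191 reads and Rps27l 108506. How reads of this pair were assigned is not known here either, so which of them is more abundant cannot be told. Rps27l was not called against Cont day 10 (log2 fold change 0.34, SE 0.23, edgeR adjusted p = 0.219) or MEFs (log2 fold change −0.29, SE 0.36, edgeR adjusted p = 0.521). The parent gene of the undetected Rpl3l, Rpl3, which lies at the peptidyl transferase centre, had 601, 676 and 691 in Cont day 10 and 1291, 1812 and 1056 in ESCs (log2 fold change 1.07, SE 0.21, edgeR adjusted p = 4.73e-05).

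**Figure D3:**
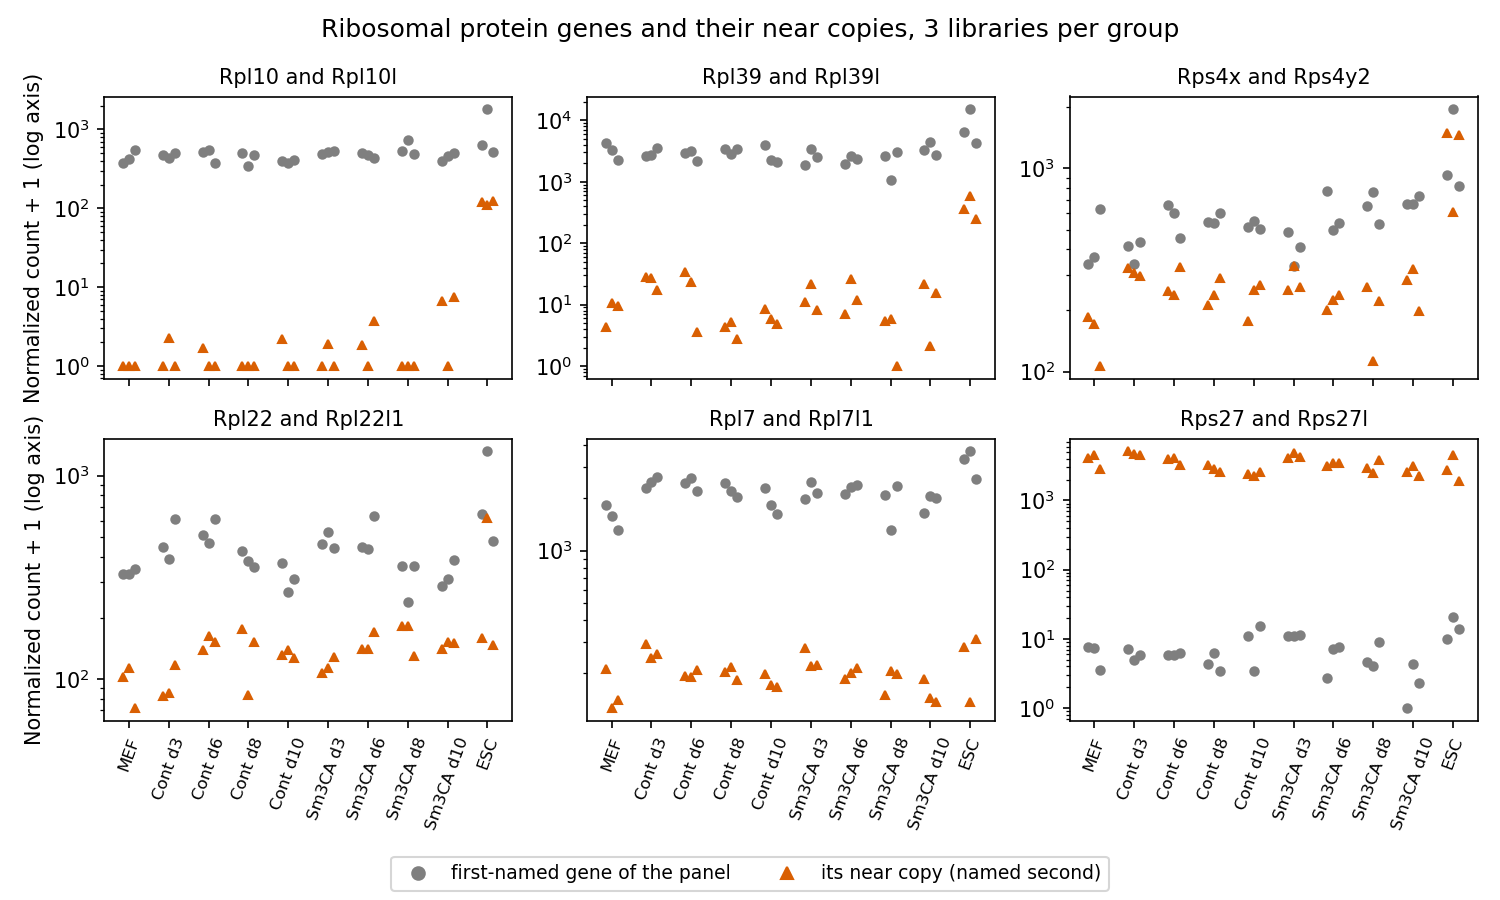
Normalized count + 1 (log axis) of 6 ribosomal protein genes and their near copies in the 3 libraries of each group. Rpl10l, Rpl39l and Rps4y2 are highest in ESCs, and Rps27l lies above Rps27 in every library. How reads were assigned between a gene and its copy is not known here.

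The stalk and other members with roles beyond the core of the ribosome were followed by name. Rplp0, the base of the stalk that recruits elongation factors, had 587, 627 and 885 normalized counts in MEFs, 477, 725 and 759 in Cont day 10 and 840.4, 1399.9 and 675 in ESCs (log2 fold change 0.56, SE 0.22, edgeR adjusted p = 0.028). Its partner Rplp1 had 8852, 5730.2 and 5004 in Cont day 10 and 11368, 18963 and 9190.3 in ESCs. Rplp2, the other partner, had 3712, 2204 and 1927 in Cont day 10 and 6223, 8159 and 4807 in ESCs. The 3 stalk genes were called higher in ESCs, with log2 fold changes of 1.00 (edgeR adjusted p = 0.00808) for Rplp1 and 1.28 (edgeR adjusted p = 0.000325) for Rplp2, and none was called between Cont day 3 and MEFs. The libraries of Rplp0 overlapped, and its call was lost without Cont day 10 replicate 1 (edgeR adjusted p = 0.144), without ESC replicate 2 (edgeR adjusted p = 0.246) and in the 6 libraries of this comparison alone (edgeR adjusted p = 0.221). That of Rplp1 was lost without ESC replicate 2 (edgeR adjusted p = 0.0525). Against MEFs only Rplp2 passed the test, at 1.16 (edgeR adjusted p = 0.0106), whereas Rplp0 had 0.46 (edgeR adjusted p = 0.259) and Rplp1 0.75 (edgeR adjusted p = 0.108), and the call of Rplp2 was lost without MEF replicate 2 or 3. Rpl5 and Rpl11 bring the small ribosomal RNA of the large subunit into place and, outside ribosomes, bind Mdm2. Rpl5 had 1763, 1757 and 1485 normalized counts in MEFs, 3059, 3047 and 3016 in Cont day 3 and 3553, 2585 and 3022 in ESCs, and it rose from MEFs to Cont day 3 (log2 fold change 0.99, SE 0.21, edgeR adjusted p = 0.000138). Rpl11 had 428, 481 and 468 in MEFs, 772, 671 and 668 in Cont day 3 and 849, 1351 and 741 in ESCs, and it too rose to day 3 (log2 fold change 0.73, SE 0.19, edgeR adjusted p = 0.00204). Both genes had no overlap between the MEF and day 3 libraries. In ESCs they were higher than in MEFs, at 0.88 (edgeR adjusted p = 0.0245) and 1.09 (edgeR adjusted p = 0.00763). That call of Rpl5 was lost with 1 well per library, without any single MEF library and without ESC replicate 1, and that of Rpl11 without MEF replicate 1.

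Rpsa, a small-subunit protein also known as a laminin receptor, had 4657, 3762 and 2250.5 normalized counts in MEFs, 3205, 2325 and 1893 in Cont day 10 and 6573, 2442 and 4461 in ESCs. ESC replicate 2 lay within the ranges of both other groups. Rpsa was higher in ESCs than in Cont day 10 (log2 fold change 0.88, SE 0.35, edgeR adjusted p = 0.0319) but was not called against MEFs (log2 fold change 0.36, SE 0.40, edgeR adjusted p = 0.462). The first of these calls was lost without ESC replicate 1, without Cont day 10 replicate 2 or 3 and in the 6 libraries of this comparison alone. Rps6, the substrate of the S6 kinases, had 8888, 8312 and 5847 in MEFs, 9307, 6267 and 6365 in Cont day 10 and 15911, 12229 and 13132 in ESCs (log2 fold change 0.92, SE 0.23, edgeR adjusted p = 0.0009). Every ESC library lay above every other library for this gene. Its call against MEFs, at 0.85 (edgeR adjusted p = 0.0466), was lost without the low-count filter, with DESeq2's size factors, without any single MEF library and without ESC replicate 1 or 3. Rpl38, which is needed for translation of Hox mRNAs in the embryo, had 2157, 2345 and 1775 in MEFs, 1362, 1313 and 1637 in Cont day 10 and 2736, 3979 and 1686 in ESCs (log2 fold change 0.96, SE 0.23, edgeR adjusted p = 0.000456), and was not called against MEFs (log2 fold change 0.42, SE 0.34, edgeR adjusted p = 0.319). The members with the most reads over all libraries were Rpl35 (324660), Rpl32 (319967), Rps3a1 (312256), Rps18 (280507) and Rpl4 (265570). These are read counts and not levels per length, so they set no order of abundance. Of these 5, only Rpl4 was not called between ESCs and Cont day 10, with 9668, 7643 and 7152 normalized counts in Cont day 10 and the ESC values given above (log2 fold change 0.29, SE 0.29, edgeR adjusted p = 0.42). The call of Rpl35 was lost in the 6 libraries of this comparison alone and that of Rps3a1 without ESC replicate 1.

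The first step, from MEFs to Cont day 3, was tested in the 30-library fit. Cont day 3 cells are transgenic MEFs of chimeric embryos, whereas the MEF group is wild-type. They also differ from that group in the vectors, the medium, the sort and the MKOS factors. These differences cannot be told apart. Of 82 members tested, 28 were higher on day 3, against 22.6% of all genes, and 1 lower, against 20.9%. Unadjusted p under 0.05 gave 30 higher and 1 lower, beside 50.3% of all genes in either direction, and DESeq2 26 and 1. The median member had a log2 fold change of 0.33 (interquartile range 0.11 to 0.74), against 0.00 for all genes. With DESeq2's size factors in place of TMM these medians were 0.21 and −0.10. By role, 20 of 45 large-subunit genes were higher (median 0.41), 5 of 31 small-subunit genes (median 0.24), with 1 lower, and 3 of 6 near copies. The subunits were not tested against each other. Cell type markers moved over this step too. From MEFs to Cont day 3 the sums over the 8 fibroblast genes went from 4139, 4535 and 5837 to 395, 517 and 608 (in ascending order, Col1a2 the most abundant in both), and those over the 4 epithelial genes from 41.2, 74.3 and 80.0 to 159.6, 165 and 184, with Epcam at 0 in MEFs. Of these 4, Krt18 fell from 69, 36 and 82 reads in the MEF libraries to 10, 9 and 14 on day 3. Krt8 rose from 3, 2 and 1 reads to 147, 118 and 138. The 8 ESC genes reached 51.7, 52.0 and 53.2 on day 3, with Pou5f1 the most abundant and Nanog and Esrrb at 0. The macrophage sums overlapped, with 351, 924 and 1056 on day 3. The part of these changes in the counts of members was not tested. Comparisons with MEFs share the MEF libraries.

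Rpl9 and Rpl34, both of the large subunit, rose most among the common proteins on day 3. Rpl9, at chr5:65388364-65391444 on the minus strand, had 485, 459 and 507 normalized counts in MEFs and 1234, 1087 and 1179 in Cont day 3 (log2 fold change 1.39, SE 0.21, edgeR adjusted p = 1.04e-06). Every day 3 library lay far above every MEF library. Rpl34 had 41.1, 63.0 and 27.7 in MEFs and 116, 121 and 91.9 in Cont day 3 (log2 fold change 1.44, SE 0.29, edgeR adjusted p = 6.39e-05), on lower counts but likewise without overlap. Rps2, which lies near the entry of mRNA into the small subunit, was the only member that fell, from 334, 361 and 522 to 283, 248 and 259 (log2 fold change −0.51, SE 0.21, edgeR adjusted p = 0.0461). That call was lost, and the count of lower members became 0, without the low-count filter, with 1 well per library, with a replicate block, and without MEF replicate 3, Cont day 3 replicate 2 or Cont day 3 replicate 3. Rps7, a small-subunit protein that can bind Mdm2 and was picked after its values were seen, had 865, 798 and 610.2 in MEFs and 1787, 1751 and 1793 in Cont day 3 (log2 fold change 1.35, SE 0.23, edgeR adjusted p = 7.65e-06).

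Within the control series, neighbouring days were compared in a fit of the 24 reprogramming libraries over 10237 genes, in which 81 members passed the filter and Rpl10l, Rpl26 and Rpl3l did not. From day 3 to day 6, 1 member rose and 4 fell, against 4.91% and 4.21% of all genes, and the median was −0.17 against 0.02. From day 6 to day 8, 0 rose and 1 fell, against 1.4% and 0.293%, with medians of −0.05 and 0.02. From day 8 to day 10, 0 were called in either direction by edgeR, against 1.58% higher and 0.821% lower of all genes, with medians of −0.23 and 0.02. In the first step the members' shares, 1.23% higher and 4.94% lower, were below or close to those of all genes. At unadjusted p under 0.05, 5 members were higher and 9 lower in the first step, 0 and 7 in the second, and 0 and 16 in the third, while 22.9%, 13.0% and 14.4% of all genes met it in either direction. DESeq2 called 3 higher and 5 lower, 0 and 2, and 0 and 2. The small counts moved with the processing. With the 6 libraries of each pair of days alone they were 5 higher and 16 lower, 1 and 1, and 0 and 1. Without the low-count filter they were 2 and 1, 0 and 2, and 0 and 3, and with 1 well per library 0 and 2, 0 and 0, and 0 and 1. Leaving out single libraries gave 0 to 3 lower in the first step, 0 to 2 in the second and 0 to 1 in the third. Over the first step the 4 epithelial markers, Krt8 the most abundant, rose in sum from 159.6, 165 and 184 to 869, 869 and 1015. The macrophage sums rose over it from 351, 924 and 1056 to 1391, 1433 and 1892. From day 6 to day 8 the fibroblast sums rose from 345, 355 and 452 to 694, 748 and 984. The epithelial sums fell over that step to 647, 691 and 735. From day 8 to day 10 the sums over the 8 ESC genes rose from 119, 137 and 140 to 480.3, 670.4 and 1053. The part of these changes in the counts was not tested. The steps share a day with their neighbours.

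The near copy Rpl22l1 was the member that rose from day 3 to day 6, from 81.1, 84.3 and 116 to 138, 162 and 150.2 normalized counts (log2 fold change 0.66, SE 0.20, edgeR adjusted p = 0.0304). The libraries of the days did not overlap. All members that fell belong to the large subunit. Rpl29, which is dispensable for a working ribosome, fell from 292, 287 and 288 to 163, 195 and 193 (log2 fold change −0.65, SE 0.16, edgeR adjusted p = 0.00736). Rpl31, at the end of the exit tunnel, fell from 669, 673 and 753 to 453, 457 and 525 (log2 fold change −0.55, SE 0.15, edgeR adjusted p = 0.018). The others were Rpl28 at −0.54 (edgeR adjusted p = 0.0336) and Rpl18 at −0.54 (edgeR adjusted p = 0.0309). The call of Rpl29 was lost without day 6 replicate 1, and that of Rpl31 without day 3 replicate 3, without day 6 replicate 1 or 2 and without the low-count filter. Those of Rpl22l1 and Rpl28 were lost with 1 well per library and without any single library of these days other than day 3 replicate 3, and that of Rpl18 with 1 well per library and without any single library other than day 6 replicate 3. Without the low-count filter Rpl28 and Rpl18 were lost as well. From day 6 to day 8 Rpl34 fell from 81.7, 82.3 and 76.4 to 40.8, 50.6 and 25.7 (log2 fold change −1.09, SE 0.26, edgeR adjusted p = 0.0162), near the MEF libraries' 41.1, 63.0 and 27.7. That call was lost with 1 well per library and without day 6 replicate 1 or 2 or day 8 replicate 3. From day 8 to day 10 the member nearest to a call was Rpl6 of the large subunit (log2 fold change −0.49, SE 0.16, edgeR adjusted p = 0.0994), with 1280.4, 1199 and 1165 normalized counts on day 8 and 839, 885 and 864 on day 10.

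The same steps were tested in the Sm3CA series. From day 3 to day 6, 4 of 81 members rose and 11 fell, against 9.62% and 8.97% of all genes, with a median of −0.15 against 0.04. From day 6 to day 8, 1 rose and 10 fell, against 2.98% and 3.7%, with medians of −0.15 and 0.04. From day 8 to day 10, 1 rose and 4 fell, against 2.43% and 2.42%, with medians of −0.14 and −0.01. The epithelial markers rose over the first step here as well, from 185, 218 and 277 to 775, 787 and 791. From day 6 to day 8 the fibroblast sums rose from 365, 383 and 511 to 738, 742 and 1034. The macrophage sums rose over that step from 574, 759 and 988 to 1130, 1193 and 2286. From day 8 to day 10 the sums over the 8 ESC genes rose from 161, 162 and 198 to 1108, 1222 and 2326. The part of these changes in the counts was likewise not tested. These counts moved when single libraries were left out. Without Sm3CA day 8 replicate 3, the fall from day 6 to day 8 covered 25 members, whereas it covered 5 without replicate 1, 2 without replicate 2 and 3 without day 6 replicate 3. Between day 3 and day 6 the count of members that fell ran from 3 to 16, and of those that rose from 0 to 6, with 1 library left out. Between day 8 and day 10 these ranges were 1 to 4 and 0 to 6. With the 6 libraries alone, 7, 2 and 0 members fell in the 3 steps, and with 1 well per library 4, 7 and 1. DESeq2 called 13, 14 and 8 lower. Without the low-count filter 11, 12 and 2 fell, and 3, 2 and 2 rose. The single member that rose from day 6 to day 8 became 2 with a replicate block and 0 with 1 well per library, and in the 6 libraries alone 0 rose in either of the later steps.

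Rpl29 fell from 276, 343 and 313 in Sm3CA day 3 to 166, 152 and 184 on day 6 (log2 fold change −0.88, SE 0.17, edgeR adjusted p = 0.000199), and Rpl31 from 653, 779 and 650.0 to 363, 392 and 426 (log2 fold change −0.80, SE 0.15, edgeR adjusted p = 0.000292). Both genes had also fallen between these days in Cont. Rpl18 of the large subunit fell over the same step (log2 fold change −0.67, SE 0.17, edgeR adjusted p = 0.00356). Those that rose with the largest change were Rpl14 at 0.64 (edgeR adjusted p = 0.00879), Rps4x at 0.57 (edgeR adjusted p = 0.0215) and Rpl3 at 0.55 (edgeR adjusted p = 0.0178). The falls of Rpl29, Rpl31 and Rpl18 were called under every alternative run. Each of the 3 rises was lost without day 3 replicate 2 or 3, that of Rps4x also without day 6 replicate 1, that of Rpl14 without day 6 replicate 3 and with 1 well per library, and that of Rpl3 without day 6 replicate 1 or 3. From day 6 to day 8 Rpl34 fell from 87.2, 62.9 and 79.6 to 24.7, 23.3 and 50.9 (log2 fold change −1.25, SE 0.26, edgeR adjusted p = 0.00292), the member that had fallen in Cont too. Rpl21 fell as well, from 134, 117 and 157 to 62.4, 47.2 and 90.4 (log2 fold change −1.04, SE 0.23, edgeR adjusted p = 0.0053), and Rpl14 (log2 fold change −0.74, SE 0.18, edgeR adjusted p = 0.00792), while Rpl10a rose (log2 fold change 0.76, SE 0.19, edgeR adjusted p = 0.00957). The call of Rpl21 was lost without day 8 replicate 2, and those of Rpl14 and Rpl10a without day 6 replicate 3 or day 8 replicate 2, with 1 well per library and in the 6 libraries alone. From day 8 to day 10 Rps10, a small-subunit protein, rose from 452, 354 and 909 to 1056, 1064 and 915 (log2 fold change 0.83, SE 0.20, edgeR adjusted p = 0.0128), and Rpl9 fell from 1038, 1064 and 1057 to 607, 649 and 690.1 (log2 fold change −0.69, SE 0.15, edgeR adjusted p = 0.00377). Both calls were lost in the 6 libraries alone, and that of Rps10 without day 8 replicate 1 or 2 or day 10 replicate 2. Rpl15 and Rpl7a, both of the large subunit, fell at −0.55 (edgeR adjusted p = 0.0317) and −0.54 (edgeR adjusted p = 0.0363). Those last calls were lost without the low-count filter, with 1 well per library and in the 6 libraries alone, that of Rpl15 also without any single library other than day 8 replicate 1 and that of Rpl7a without any other than day 8 replicate 3.

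Whether a step differed between the series was tested in the 24-library fit as an interaction, a test added after the data were seen. No member was called by edgeR for any of the 3 steps, against 0.0% of all genes from day 3 to day 6, 0.0% from day 6 to day 8 and 0.186% from day 8 to day 10. Unadjusted p under 0.05 was met by 1, 7 and 13 of the 81 members and by 4.98%, 9.14% and 11.04% of all genes. DESeq2 was not run for these added tests.

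Sm3CA and Cont were compared on each day, the question of the study. No member (0 of 81) was called in either direction by edgeR on any day, against 0.0195%, 0.00977%, 1.04% and 3.58% of all genes, in the order of the days. The medians over the members were −0.07, −0.08, −0.19 and −0.04 on the 4 days, against 0.00, 0.01, 0.00 and −0.01 over all genes. At unadjusted p under 0.05 there were 1, 0, 17 and 8 members, of which 15 of the 17 and 7 of the 8 were lower in Sm3CA. Over all genes, 5.11, 4.16, 15.2 and 15.9% met this mark in either direction. Their split by direction is not given here, so the counts of lower members stand without a reference. DESeq2 called 0 members on days 3 and 6 and 1 lower on each of days 8 and 10. On day 8 the count of lower members was 7 without the low-count filter, 1 with 1 well per library and 16 without Sm3CA replicate 3. A p that misses the threshold does not show that the series are alike.

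The members nearest to a call show how the libraries spread. On day 3 this was Rpl34, with 116, 121 and 91.9 normalized counts in Cont and 69.1, 90.0 and 61.6 in Sm3CA (log2 fold change −0.57, SE 0.24, edgeR adjusted p = 0.87). On day 8 it was Rps12 of the small subunit, with 2961, 2812 and 2929 in Cont and 1256, 665 and 2312 in Sm3CA (log2 fold change −1.02, SE 0.29, edgeR adjusted p = 0.0742). Every Sm3CA library was below every Cont library, but the Sm3CA libraries themselves spread widely. On day 10 it was Rpl31, with 484, 346 and 389 in Cont and 244, 305 and 311 in Sm3CA (log2 fold change −0.49, SE 0.16, edgeR adjusted p = 0.0847), again without overlap. These genes were chosen after their values were seen.

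Other parts of the translation machinery were counted in the same fits, from lists given in the design. From MEFs to Cont day 3, the 36 genes of nucleolar ribosome assembly had a higher median than the members: 35 of 36 were higher and 0 lower (median 1.55). The largest changes were those of Polr1b, a subunit of RNA polymerase I, at 2.73 (edgeR adjusted p = 3.98e-09), Ebna1bp2 at 2.57 (edgeR adjusted p = 1.31e-10) and Nop16 at 2.54 (edgeR adjusted p = 5.19e-11), the latter assembly factors of the large subunit. Of the mitochondrial ribosomal proteins, 51 of 76 were higher and 1 lower (median 0.83). Of the translation factors, 16 of 35 were higher and 1 lower (median 0.40). Between ESCs and Cont day 10 the members had the highest of these medians, at 1.10. There, 21 of 36 were higher and 1 lower (median 0.64) in nucleolar assembly, led by Gar1 at 1.83 (edgeR adjusted p = 0.000209), Rrn3 at 1.59 (edgeR adjusted p = 9.12e-07) and Fbl at 1.57 (edgeR adjusted p = 2.67e-06). In the mitochondrial ribosome 21 of 76 were higher and 6 lower (median 0.15), and among translation factors 18 of 35 were higher and 1 lower (median 0.50). Between ESCs and MEFs the medians were 1.46 for nucleolar assembly (31 of 36 higher and 0 lower), 0.60 for the mitochondrial ribosome (25 of 75 higher and 4 lower) and 0.41 for translation factors (5 of 35 higher and 0 lower), beside 1.02 for the members. Of all genes tested, 22.6% were higher and 20.9% lower in Cont day 3 than in MEFs, 21.5% and 30.3% in ESCs than in Cont day 10, and 23.5% and 28.8% in ESCs than in MEFs. The lists were not tested against one another. Counts and medians of the lists include ESC replicate 2, which stood apart in the members, and are not given without it. The part of that library in the order of these medians was not tested.

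Smaller lists gave the surroundings of the members. The chaperones that hold new ribosomal proteins had 4 of 8 higher in Cont day 3 than in MEFs and 4 of 8 higher in ESCs than in Cont day 10. Of the regulators of mTORC1 and of TOP mRNAs, 2 of 11 were higher and 0 lower in each of these comparisons. The p53 list holds Trp53, Mdm2 and Mdm4 beside target genes. Of its genes, 0 of 10 were higher and 3 lower in Cont day 3 than in MEFs, and 2 were higher and 4 lower in ESCs than in Cont day 10. The largest changes on day 3 were those of Trp53inp1 at −1.20 (edgeR adjusted p = 0.000506), Mdm2 at −1.05 (edgeR adjusted p = 0.000196) and Ccng1 at −0.90 (edgeR adjusted p = 0.000316). In ESCs they were those of Cdkn1a at −4.69 (edgeR adjusted p = 3.88e-20), Trp53 itself at 1.88 (edgeR adjusted p = 2.34e-05) and Ccng1 at −1.34 (edgeR adjusted p = 1.35e-06). Trp53 had 599, 40 and 540 reads in ESC replicates 1, 2 and 3, and 105, 86 and 141 in Cont day 10. Its libraries thus overlapped, with ESC replicate 2 below every Cont day 10 library. The shares over all genes given above apply to these lists too.

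Reads of some members may lie under pseudogene symbols, which the rule leaves out. Rps15a-ps4 had 148843 reads over all libraries against 27832 for Rps15a (5.35 times as many), Rpl31-ps12 86942 against 15671 for Rpl31 (5.55 times) and Rpl34-ps1 17494 against 1906 for Rpl34 (9.18 times). For these genes the split of reads between near-identical copies is uncertain, and so are their levels. Rpl34 and its pseudogene symbol also went apart. Between ESCs and Cont day 10, Rpl34 stood at −0.08 (edgeR adjusted p = 0.843) and Rpl34-ps1 at 1.34 (edgeR adjusted p = 1.29e-05). From MEFs to Cont day 3 both rose, at 1.44 for Rpl34 and 0.81 (edgeR adjusted p = 0.00559) for Rpl34-ps1. The other pairs differed in their calls over that step. Rpl31 was called higher at 1.11 (edgeR adjusted p = 5.91e-06) and Rpl31-ps12 was not, at −0.25 (edgeR adjusted p = 0.496). Rps15a was called higher at 0.61 (edgeR adjusted p = 0.0166), a call lost with DESeq2's size factors and without MEF replicate 1 or 2 or Cont day 3 replicate 1 or 3, and Rps15a-ps4 was not, at −0.14 (edgeR adjusted p = 0.744). For these pairs the symbol with most of the reads showed no call. Rpl31-ps12 was higher in ESCs than in Cont day 10 at 1.50 (edgeR adjusted p = 2.02e-05) and Rps15a-ps4 at 1.56 (edgeR adjusted p = 0.000105), beside 1.10 for Rpl31 and 1.37 for Rps15a. The pseudogene symbols of ribosomal proteins together took 0.576% of reads in MEFs and 1.10% in ESCs.

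Members were also described by features that the rule did not use. The 83 members with a symbol in GENCODE lie on 19 chromosomes, so they are spread over the genome. Promoter sequences of RefSeq (GRCm38.p6), from 250 bases before to 50 bases from the annotated start on, were found for 63 of the 84 members, with 75 promoters. A TOP-like start, a C followed by 4 letters each C or T directly at the annotated start on the transcript strand, was found in 13 of the 75 (17.3%), against 823 of all 32851 promoters (2.51%). The letters CCGGAAG, searched on both strands of the whole 300 bases, were found in 27 of 75 (36.0%), against 2910 (8.86%), and 8 promoters had both. The annotated start need not be the base at which transcription starts in these cells. The 13 genes with a TOP-like start were Rpl14, Rpl15, Rpl28, Rpl35, Rpl35a, Rpl38, Rplp2, Rps6, Rps10, Rps15a, Rps18, Rps21 and Rps27. Their median log2 fold change was 1.01 between ESCs and Cont day 10 (12 of 13 higher) and 0.24 between Cont day 3 and MEFs (2 of 13), against 1.13 (41 of 48) and 0.37 (18 of 48) in the other members with a promoter.

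Starts of common genes and of near copies are shown to set their first bases side by side, from 30 bases before the start to 20 from it on, 5′ to 3′ on the transcript strand. They are Rps6 at chr4:86857348-86857397 (minus strand), Rplp2 at chr7:141447621-141447670 (plus strand), Rpl38 at chr11:114668550-114668599 (plus strand), Rpl22l1 at chr3:28805478-28805527 (plus strand), Rpl39l at chr16:10170198-10170247 (plus strand), Rpl10l at chr12:66284382-66284431 (minus strand) and Rpl7l1 at chr17:46782637-46782686 (minus strand) of GRCm38. Capitals mark the run of C and T at a TOP-like start and CCGGAAG.
Rps6: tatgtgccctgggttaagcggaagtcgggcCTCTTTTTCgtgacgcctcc
Rplp2: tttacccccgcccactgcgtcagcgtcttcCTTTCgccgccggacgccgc
Rpl38: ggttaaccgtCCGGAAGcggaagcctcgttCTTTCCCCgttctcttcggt
Rpl22l1: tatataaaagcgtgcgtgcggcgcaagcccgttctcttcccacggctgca
Rpl39l: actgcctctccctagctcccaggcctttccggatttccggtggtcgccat
Rpl10l: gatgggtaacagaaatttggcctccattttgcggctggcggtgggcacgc
Rpl7l1: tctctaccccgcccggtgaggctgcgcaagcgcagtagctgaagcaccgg
The common genes Rps6, Rplp2 and Rpl38 begin with such a run and were chosen for it, and none of the 4 near copies does. A match describes these letters only.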

How the data were processed

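Expression was measured by STRT RNA-seq in 84 wells of 10 groups. The count table deposited by the authors, with unnormalized reads for each gene in each well, was used as it stands. Per the submitters' processing notes they used Bowtie 0.12.9, DESeq2 1.6.3 and mm10, and the paper refers to an earlier publication (Islam et al., 2014) for its read pipeline. The labels and the paper do not name the counting tool or its annotation. Wells of a replicate were summed to 30 libraries. Wells held 195330 to 902989 reads, and libraries 3 wells, or 2 on day 10. Positions are from GENCODE vM21 and promoters from RefSeq (GRCm38.p6).

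Comparisons used edgeR 4.0.16 with limma 3.58.1 in R 4.3.3 (TMM, filterByExpr by group, quasi-likelihood test, Benjamini-Hochberg adjustment over all genes tested, threshold 0.05). A fit of all 30 libraries gave the comparisons that join a reprogramming group with MEFs or ESCs, a fit of 24 libraries those among reprogramming groups, and a fit of 6 libraries ESCs against MEFs. This made 13 comparisons, and 5 more were added after seeing the data. Normalized counts are DESeq2 1.42.0 counts divided by size factors. Tables were made with Python 3.11.15 and pandas 2.3.3. The fit was tested on simulated data. No well was left out.

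The members and the lists (nucleolar ribosome assembly, mitochondrial ribosomal proteins, translation factors, chaperones, mTORC1 and TOP regulators, the p53 pathway, and cell type markers) were chosen with earlier results of these data known. Genes named are the 3 members in each direction with the largest log2 fold change that were called and whose libraries did not overlap, near copies with their parents, stalk genes, Rpl5, Rpl11, Rpsa, Rps6, Rpl38, and the 5 members with most reads. The rule also gives the 3 genes with the largest change among those called in each other list. The text names them for nucleolar assembly and the p53 list, between Cont day 3 and MEFs and between ESCs and Cont day 10, and gives only counts for the other lists. Rps29, Rpl37, Rps7, Rpl6, Rps12 and the members listed as not called or as nearest to a call were named after their values were seen.

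Alternatives were DESeq2's size factors, TMM without the members, no filter on low counts, the DESeq2 Wald test, 1 well per library, other libraries in the fit, a replicate block, and leaving out each library in turn.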

Additional observations from a re-analysis of the deposited data

Results flagged for a closer look

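Reads outside the rule were found under pseudogene symbols of ribosomal proteins, which no comparison of members takes in. Over all 30 libraries, Rps15a-ps4 had 148843 reads, Rpl31-ps12 86942, Rpl34-ps1 17494, Rplp2-ps1 8959 and Rps19-ps3 2329. Rps15a-ps4, Rpl31-ps12 and Rpl34-ps1 had more reads than the genes they are named for, and Rplp2-ps1 and Rps19-ps3 had 0.102 and 0.178 times as many. Where these reads came from was not tested.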

How the results depend on the processing

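Members higher in ESCs were called under every setting. Shares over all genes are not given for the alternative settings or with a library left out, so those counts stand without a reference. Against Cont day 10 they numbered 62 to 76 under all planned settings, and 69 to 75 with a library left out. With Cont day 3 in place of Cont day 10, an alternative added after seeing the data, they numbered 51, and 3 were lower. Against MEFs they numbered 53 to 73, and with a library left out 24 to 61. Higher members in Cont day 3 against MEFs numbered 23 to 30, and 23 to 27 with a library left out. Sm3CA against Cont gave 0 on days 3 and 6 under every setting.

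Small counts moved, and the cause was not tested. The 1 member lower in Cont day 3 than in MEFs became 0 without the low-count filter and with 1 well per library, and 0 to 1 with a library left out. From Cont day 3 to day 6, the 1 higher became 2 (no filter), 0 (1 well), 3 (DESeq2), 5 (6 libraries alone) and 0 to 1 (libraries left out), and the 4 lower became 1 (no filter), 2 (1 well), 16 (6 libraries alone) and 0 to 3. From Cont day 6 to day 8, 1 was higher in the 6 libraries alone, and the 1 lower became 2 (no filter), 0 (1 well), 2 (DESeq2) and 0 to 2. From Cont day 8 to day 10, the 0 lower became 3 (no filter), 1 (1 well), 2 (DESeq2), 1 (6 libraries alone) and 0 to 1.

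In Sm3CA from day 3 to day 6, the 4 higher ran from 0 to 6 with a library left out, and the 11 lower became 4 (1 well), 7 (6 libraries alone) and 3 to 16. From day 6 to day 8, the 1 higher became 2 (no filter), 0 (1 well), 0 (6 libraries alone) and 0 to 1, and the 10 lower became 2 (6 libraries alone) and 2 to 25. From day 8 to day 10, the 1 higher became 2 (no filter), 0 (6 libraries alone) and 0 to 6, and the 4 lower became 2 (no filter), 1 (1 well), 8 (DESeq2), 0 (6 libraries alone) and 1 to 4. Sm3CA below Cont on day 8 became 7 (no filter), 1 (1 well), 1 (DESeq2) and 0 to 16, and on day 10 became 1 (DESeq2).

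With a replicate block, 0 members were lower in Cont day 3 than in MEFs and 2 rose from day 6 to day 8 in Sm3CA. ESC counts were 73 against Cont day 10 and 57 against MEFs, and no other count moved by over 1.5 times. Numbers are paired across days within a series in the design text, and deviations of same-numbered libraries over 6740 genes correlated at −0.171 to 0.251 between neighbouring days of a series. Between the series on the same day the range was −0.238 to 0.137. The block was kept as an alternative.

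For 29 pairs of a named gene and a comparison, 304 of 377 alternatives kept the call, 73 lost it and 0 reversed. The summed level of members in ESCs was 1.6 times that of Cont day 10 by share of reads and 2.15 times by normalized counts. Without the member with the most reads, the mean shares of Cont days 3, 6 and 8 were 11.6, 11.3 and 12.2%. Few reads limit what can be said of genes such as Rpl10l, Rpl39l, Rpl34 and Rps27, and why they had few was not tested.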
